A study of Mus musculus with 237 samples.

Results

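The K17-high keratinocytes described here were 4 of the 8 wild-type (WT) cells of the fetal epidermis that carry the label K17 high. They were compared over all genes with 11 of the 45 WT cells labelled basal layer. The other cells with these labels, from all 3 WT embryos, were not used. The series holds 237 single cells, of which 16 columns of the count table were used because the study pairs those columns with a cell name. All 16 came from 1 C57BL/6N embryo (WT01) (E14.5), carried by an ICR surrogate mother, and they comprised the 4 K17-high cells, the 11 basal cells and 1 intermediate-layer cell. The skin was separated with dispase and trypsin, and propidium iodide-negative cells without the blood markers CD45 and TER119 and without the fibroblast marker CD140a were sorted and made into one library each. WT libraries were kept when quantitative PCR found Krt5 and no Pdgfra, so neither gene can serve as a comparison.

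The labels were assigned by the study from keratin levels of these same cells: K17 high for high Krt17 with low Krt8 and Krt18, basal for high Krt5 and Krt14 with low Krt1 and Krt10. Keratin differences between the groups are therefore the definition of the groups and are given as a check. Every other gene below is described without a test, because cells of 1 embryo are not replicates of a condition and each group is 1 sample. A gene is called separated when all 4 K17-high cells lay above, or all 4 lay below, all 11 basal cells.

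Keratin 17 is a type I keratin that forms filaments in periderm, hair follicle and injured epidermis, whereas keratins 5 and 14 mark the basal layer attached to the basement membrane. At this stage the single basal layer begins to stratify and hair follicles start as placodes that signal through Wnt, Eda, Fgf and Sonic hedgehog. Sox9 is a transcription factor of the hair follicle stem cell lineage, found in the upper part of early placodes and later in the bulge.

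Levels are given in CPM, the rounded count of a gene divided by the total of its column and scaled to a total of 1000000. Column totals were between 6345186 and 9001846 counts, and between 7348 and 9164 genes reached 5 CPM per cell. Of 55335 genes in the table, 10855 reached 5 CPM in at least 4 of the 15 cells and are described here. Basal cell 2 (WT01CELL002) stood apart from the other basal cells. Its Spearman correlations with the other 10 were between 0.435 and 0.470, below those among the other 10 (0.506 to 0.683), over 10847 genes without the label genes. Basal cell 2 also had the fewest genes at 5 CPM, 7348. Its 10 most counted genes held 12.4% of its counts, the largest share of any cell. The part of these 2 traits in its correlations was not tested. Basal cell 2 alone among the basal cells held Shh, at 253 CPM, and Dkk4, at 106 CPM, both genes of hair placodes. Over the 14 listed hair placode genes, basal cell 8 had a higher summed level, 5031 CPM, than basal cell 2, 4355 CPM. Counts of separated genes over all genes are given with and without basal cell 2.

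Krt17 was measured at 1715, 3902, 3155 and 2819 CPM in the 4 K17-high cells, against a lowest, median and highest basal value of 4.37, 45.8 and 613 CPM. The highest basal value was that of basal cell 2, and the other 10 did not exceed 106 CPM. Krt5 was present in every K17-high cell (2255, 1245, 1885 and 1041 CPM) within the basal range of 491 to 7156 CPM. Krt14 was measured at 3516, 2175, 4059 and 1508 CPM, against 3498 to 9464 CPM in basal cells, so the ranges overlapped. Krt8 did not exceed 72.7 CPM and Krt18 did not exceed 70.9 CPM in the K17-high cells. The markers of the label were thus as named, and Sox9, which the label did not use, was at 5 CPM or more in all 4 K17-high cells and in 1 basal cell. Krt17, Krt5 and Krt14 carried fractional counts in 73.3%, 100% and 93.3% of their values. How the reads behind these fractions were divided is not given.

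Few genes separated the groups. Of the 10855 genes, 33 (0.304%) were higher in all 4 K17-high cells than in any basal cell, and 10 (0.0921%) were lower. Only 6 of the higher genes (0.0553%) and 2 of the lower ones (0.0184%) had a gap of at least 2-fold between the nearest cells after adding 1 CPM. The 6 were Ncam1, Sox9, Ldlrad3, Bhlhe40, Ltbp1 and Krt17, and the 2 were Epb41l5 and Ptar1. Krt17 counts among the 33 and the 6, but the label was made from it, so its separation is part of the definition. By summed level, 282 genes (2.60%) were at least 4-fold higher in the K17-high cells and 605 (5.57%) at least 4-fold lower. Of these, 24 and 7 were separated, so most large ratios rested on some of the cells. At the edge of the definition, Mki67 separated with a lowest K17-high value of 342 CPM against a highest basal value of 336 CPM. Ccdc77 did not, at 38.3 against 38.4 CPM.

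**Figure D1:**
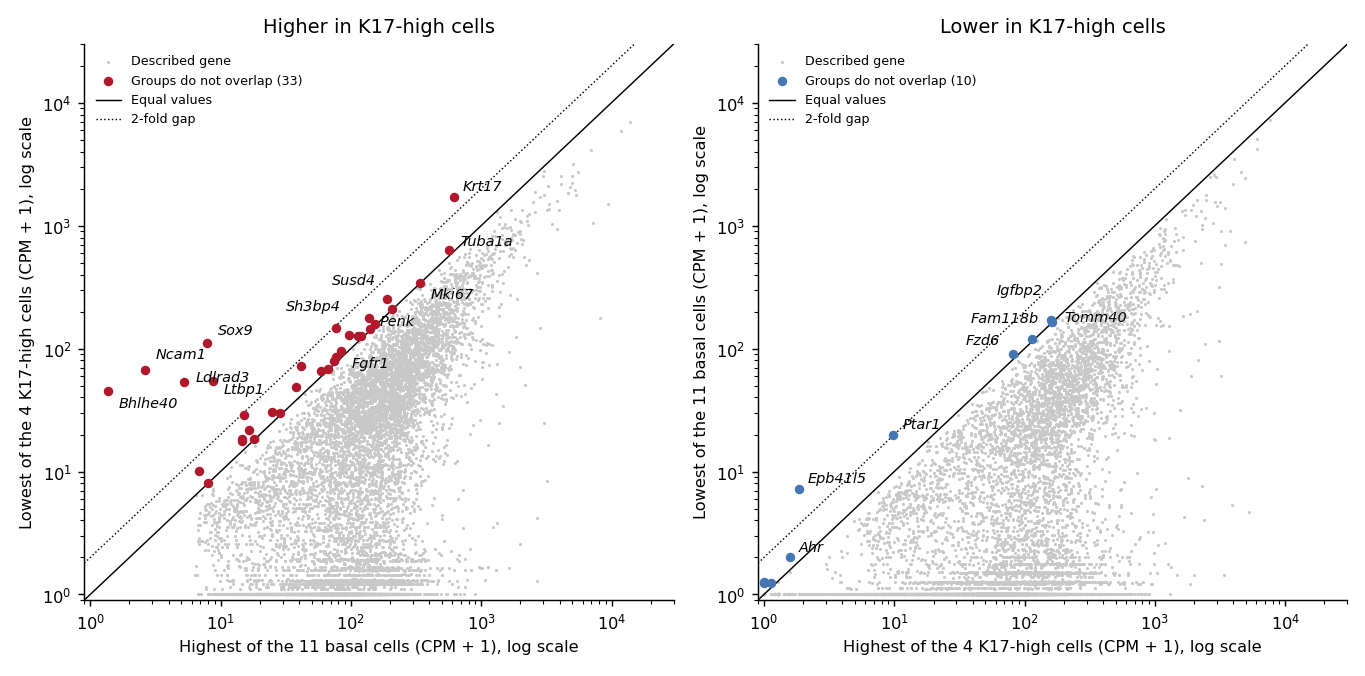
Each point is 1 of 10855 described genes. On the left the lowest K17-high value is plotted against the highest basal value, on the right the lowest basal value against the highest K17-high value, all in CPM + 1 on log axes. Coloured points lie above the line of equal values (33 and 10 genes), and the dotted line marks a 2-fold gap.

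Ncam1 (chr9:49502136-49798925, minus strand, GRCm38), the neural cell adhesion molecule, had the highest ratio of the separated genes. It was measured at 66.2, 442, 133 and 525 CPM in the K17-high cells, and its basal lowest, median and highest were 0, 0.242 and 1.62 CPM. No basal cell came near the lowest K17-high cell. The summed level was 277 CPM (95% Poisson interval 271 to 283) against 0.296 CPM (0.193 to 0.434), where the intervals cover counting error only. Part of its exons is shared with Gm11149, and 60% of its values above 0 were fractional.

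Sox9 (chr11:112782224-112787760, plus strand) was measured at 111, 471, 379 and 291 CPM, and it was absent from most basal cells (lowest 0, median 0, highest 6.94 CPM). Basal cell 2 and the intermediate-layer cell held no Sox9 count. The summed level was 319 CPM (313 to 326) against 1.05 CPM (0.844 to 1.28), with no exon shared with another gene and no fractional count.

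Ldlrad3 (chr2:101950203-102186385), a membrane protein of the LDL receptor class A family, was measured at 99.5, 103, 74.1 and 52.6 CPM against 0, 0 and 4.27 CPM. Ltbp1 (chr17:75005568-75392512), which binds latent TGF-beta to the extracellular matrix, was at 64.9, 103, 52.98 and 198 CPM against 0, 0.257 and 7.75 CPM. For both genes each K17-high cell lay far above the highest basal cell, and basal cell 2 was at 0.

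Bhlhe40 (chr6:108660629-108666925), a transcriptional repressor of the basic helix-loop-helix class, was at 53.1, 43.9, 58.8 and 69.5 CPM, and no basal cell exceeded 0.364 CPM. The intermediate-layer cell, which has left the basal layer and held Krt1 and Krt10 at 13863.5 and 15380.4 CPM, had 299 CPM of Bhlhe40. Bhlhe40 was thus higher in the K17-high cells than in the basal cells, and higher still in the intermediate cell. Its exons meet those of 0610040F04Rik, and 25% of its values above 0 were fractional. Ldlrad3, Bhlhe40 and Ncam1 were the 3 genes at 5 CPM or more in all 4 K17-high cells and in no basal cell.

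**Figure D2:**
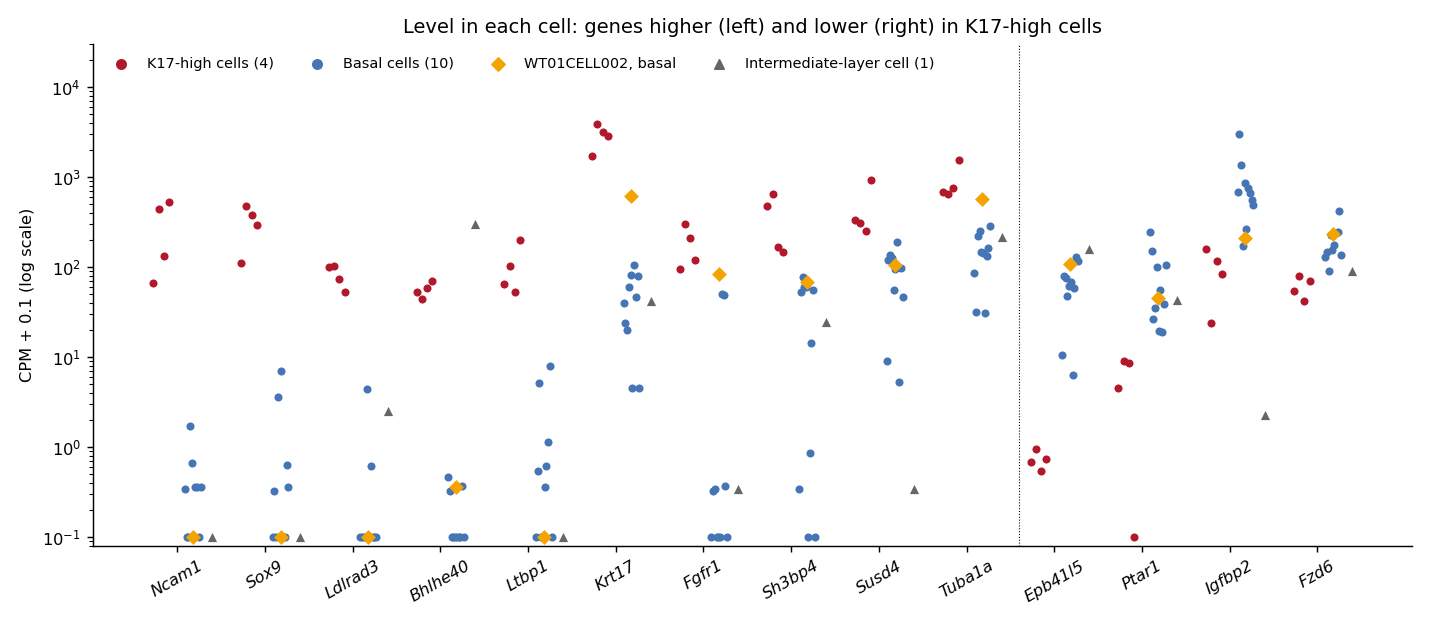
Level of 14 separated genes in each cell, as CPM + 0.1 on a log axis. Red points are the 4 K17-high cells, blue points 10 basal cells, the orange diamond basal cell 2 and the grey triangle the intermediate-layer cell. Ncam1, Sox9, Ldlrad3 and Bhlhe40 sit below 7 CPM in all 11 basal cells, whereas Krt17 and Fgfr1 are highest in basal cell 2 among them.

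The other 27 higher genes had a narrower gap, and they are named here after their values were seen. Fgfr1, a receptor for fibroblast growth factors, was at 93.9, 299, 210 and 118 CPM in the K17-high cells. Its basal median was 0.222 CPM, but basal cell 2 had 83.2 CPM and another basal cell 50.4 CPM. Sh3bp4, which acts in receptor endocytosis, was at 473, 645, 165 and 147 CPM against 0, 52.2 and 76.4 CPM. Trp73, the p53 family member p73, was at 29.5, 41.5, 64.6 and 35.9 CPM against 0, 0.237 and 23.7 CPM. Penk, the precursor of enkephalin peptides, was at 349.99, 249.98, 318 and 175 CPM against 4.58, 33.5 and 136 CPM, and the intermediate cell fell in the K17-high range at 248 CPM. In Fgfr1 and Trp73 most basal cells were low and 1 or more approached the K17-high cells. Sh3bp4 was at 5 CPM or more in 7 of the 11 basal cells, and Penk in 10.

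Further higher genes were also at 5 CPM or more in at least 5 basal cells. Susd4, a complement regulator, was at 332, 308, 251 and 928 CPM, and all 11 basal cells held it at 5.17 to 187 CPM. Tuba1a, an alpha-tubulin, was at 674, 638, 749 and 1557 CPM against 30.4, 146 and 567 CPM, with basal cell 2 highest. Every Tuba1a value was fractional and its exons meet those of Gm49450, so reads shared with other genes cannot be told apart. Map3k20, a stress-activated kinase, was at 128, 252, 271 and 144 CPM against 0.775, 31.3 and 95.3 CPM. Lasp1, an actin-binding adaptor, was at 270, 255, 356 and 210 CPM against 28.7, 90.5 and 205 CPM. Bgn, the matrix proteoglycan biglycan, was at 118, 64.7, 64.6 and 103 CPM against 0, 0.259 and 57.8 CPM, and 5 basal cells held it at 5 CPM or more. The summed levels of the 5, with 1 CPM added, were 2.71-fold (Lasp1) to 4.91-fold (Map3k20) above basal.

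Asprv1, a protease of upper epidermal layers, was at 71.5, 71.0, 199 and 131 CPM against 0, 1.53 and 40.6 CPM. It was at 1006 CPM in the intermediate cell. Of the 33 higher genes, the intermediate cell lay within or below the basal range for 25, and at or above the lowest K17-high cell for 8. Zfp708 and Gm28557, which share exons on chromosome 13, had almost equal values (24.1, 29.4, 17.3 and 40.8 CPM for Zfp708) and count as 1 signal. Of the 33 genes, 14 had no exon in common with another gene and at most 10% fractional values. Sox9, Ldlrad3 and Ltbp1 were the 3 of these with the 2-fold gap.

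Ly6h, a surface protein of the Ly6 family, was at 27.7, 126, 59.9 and 33.1 CPM against 0, 0.257 and 14.2 CPM. Arl15, an Arf-like GTPase, was at 78.3, 97.5, 213 and 192 CPM against 0.254, 9.86 and 73.7 CPM. Mtmr10, of the myotubularin family, was at 220, 445, 321 and 144 CPM against 0, 29.4 and 138 CPM. Each had several basal cells near 0 and a highest basal cell within 2-fold of the lowest K17-high cell. Sun2, which links the nuclear envelope to the cytoskeleton, was at 26.5, 7.13, 28.5 and 22.4 CPM against 0, 0 and 6.96 CPM. Avl9 was steady in the K17-high cells, at 47.5, 48.9, 49.9 and 52.01 CPM, against 0, 0 and 36.8 CPM.

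Ccnc, the cyclin of the Mediator kinase module, was at 170, 277, 125 and 140 CPM against 0, 56.5 and 113 CPM. Phtf1 was at 126, 238, 193 and 325 CPM against 21.3, 56.6 and 119 CPM, and all 11 basal cells held it. Ubn2, a subunit of the HIRA histone chaperone complex, was at 84.0, 85.1, 164 and 106 CPM against 1.02, 64.1 and 76.3 CPM. Plekhh1, Pphln1, Sdr39u1, Myo1h and the predicted genes Gm45716 and Gm23634 complete the higher set with Mki67, which is described with its list. Their summed levels with 1 CPM added were 1.88-fold (Gm23634, a miRNA gene in the exons of Stmn1) to 12.6-fold (Plekhh1) above basal. The log2 ratio of Plekhh1 went from 3.65 to 2.44 without the fourth K17-high cell.

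The 10 lower genes were fewer and their values were also spread. How many genes another grouping of these cells would separate was not tested. Epb41l5 (chr1:119545037-119649000), a FERM-domain protein that acts at cell junctions, was at 0.583, 0.855, 0.445 and 0.630 CPM in the K17-high cells. It was at 6.23 CPM or more in all 11 basal cells, with a median of 67.4 and a highest value of 130 CPM. It was the 1 gene at 5 CPM or more in every basal cell and in no K17-high cell, and the intermediate cell had 158 CPM. Ptar1 (chr19:23687429-23731668), a prenyltransferase subunit, was at 4.37, 8.84, 8.46 and 0 CPM against 18.9, 45.3 and 246 CPM.

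Igfbp2 (chr1:72824503-72852474), which binds insulin-like growth factors, was at 158, 23.9, 115 and 83.5 CPM against 169, 664 and 3027 CPM. The nearest cells of the groups differed little, while the summed levels were 96.4 CPM (92.9 to 100.1) and 847 CPM (841 to 854), a ratio of 8.71-fold. The intermediate cell was lower still, at 2.18 CPM. Fzd6, a Wnt receptor of planar cell polarity, was at 53.7, 79.8, 41.9 and 70.1 CPM against 89.5, 173 and 419 CPM. Tomm40, the pore of the mitochondrial import complex, was at 162, 110, 90.5 and 128 CPM against 165, 271 and 331 CPM. Fam118b was at 7.58, 43.6, 112 and 32.5 CPM against 119, 159 and 367 CPM.

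The other 4 lower genes rested on low basal values. Ahr, the aryl hydrocarbon receptor, was at 0.583, 0, 0 and 0 CPM against 1.02, 32.2 and 92.4 CPM. Borcs5, a subunit of a complex that moves lysosomes, had no count in the K17-high cells and 0.257, 34.2 and 151 CPM in basal cells. Taking 3 counts over the 4 cells as the limit, which covers counting error only, its summed level was at least 372-fold lower. With 1 CPM added, as for the other ratios, it was 39.2-fold lower. Kcnh7, a potassium channel, also had no K17-high count and was at 0.242, 18.7 and 84.4 CPM, at least 279-fold lower by the same limit. With 1 CPM added Kcnh7 was 29.6-fold lower. Its exons meet those of Gca, so reads of the pair may not be told apart. Wdr45 was at 0, 0.143, 0 and 0 CPM against 0.242, 25.5 and 59.7 CPM. In each of these genes the lowest basal cell was at or below 1.02 CPM.

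The promoters of the 40 separated genes with a symbol of their own were looked up in RefSeq (GRCm38.p6), which matched 23 of 30 higher and 7 of 10 lower genes, with Krt17, Sox9 and Ncam1 missing. Over the 250 bases before each start, on both strands, TATAAA, the core promoter box, was found at 3 of the 32 higher starts and none of the 9 lower ones, against 12.4% of 32851 starts. TGANTCA (AP-1) was at none and 1, against 6.75%, and AACAAT (SOX) at 1 and 1, against 9.42%. CTTTGAT (TCF and LEF) was at 1 and none, against 3.21%. TGGGTGGTC (GLI) was at none of either, against 0.225%, and CACGTG (E box) was at 2 and 2, against 6.02%. No motif was read as a site. Igfbp2 is shown as a lower gene present in every cell, with its E box in capitals. Trp73 is shown because it has a pair of starts that gene counts do not separate, the outer at its 5′ end and the inner within the gene.
Igfbp2 start, chr1:72824230-72824479, plus strand: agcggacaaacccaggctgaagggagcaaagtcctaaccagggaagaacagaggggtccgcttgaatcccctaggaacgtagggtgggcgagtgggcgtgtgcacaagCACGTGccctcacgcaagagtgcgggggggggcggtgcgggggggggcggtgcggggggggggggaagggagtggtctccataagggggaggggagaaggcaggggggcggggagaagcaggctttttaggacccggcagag
Trp73 outer start, chr4:154139876-154140125, minus strand: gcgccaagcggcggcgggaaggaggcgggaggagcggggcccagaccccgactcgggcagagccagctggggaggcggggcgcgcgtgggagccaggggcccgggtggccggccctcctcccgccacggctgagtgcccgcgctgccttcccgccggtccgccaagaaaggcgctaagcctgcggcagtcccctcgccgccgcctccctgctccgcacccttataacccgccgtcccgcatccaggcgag
Trp73 inner start, chr4:154097174-154097423, minus strand: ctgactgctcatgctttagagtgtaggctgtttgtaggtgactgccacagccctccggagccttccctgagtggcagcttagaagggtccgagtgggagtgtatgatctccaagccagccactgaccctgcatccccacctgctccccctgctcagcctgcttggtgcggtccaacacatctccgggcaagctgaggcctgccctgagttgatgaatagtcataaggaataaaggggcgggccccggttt
Neither Trp73 stretch holds any of the 6 motifs, which says only that these letters are absent from these windows.

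Leaving out basal cell 2 raised the higher genes from 33 to 59 (0.544%) and the lower ones from 10 to 29 (0.267%). With a 2-fold gap the counts became 14 (0.129%) and 5 (0.0461%). By construction, basal cell 2 lay beyond the other 10 basal cells on the K17-high side in the 26 higher and 19 lower genes that were added. With basal cell 2 set beside the K17-high cells against the other 10 basal cells, 31 genes (0.286%) were higher and 20 (0.184%) lower, 8 and 3 of them with a 2-fold gap. In 13 of the 26 added higher genes basal cell 2 exceeded all 4 K17-high cells.

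By the naming rule, 4 of these genes stood out, with a 2-fold gap and 10 CPM or more in each of the 5 cells: Krt17, Bnc2, Tubb2b and Dusp6. Of these, Krt17 is the gene from which the label was made. Bnc2, the zinc finger protein basonuclin 2, was at 65.04, 63.3, 143 and 136 CPM in the K17-high cells and 99.0 CPM in basal cell 2, and no other basal cell exceeded 17.4 CPM. Tubb2b, a beta-tubulin, was at 173, 364, 156 and 345 CPM and 237 CPM in basal cell 2, against at most 73.9 CPM in the other 10. Dusp6, a phosphatase that is a target of FGF and ERK signalling, was at 285, 496, 644 and 886 CPM and 1398 CPM in basal cell 2, against at most 86.0 CPM. The rule that picked these genes fixes the side on which basal cell 2 lies, and its Sox9 count was 0.

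Others of the added genes are named here after their values were seen. Bdnf, a neurotrophin, was at 89.0, 81.0, 9.13 and 397 CPM and 304 CPM in basal cell 2, against at most 0.474 CPM in the other 10. Frem1, a matrix protein of the Fraser complex at the basement membrane, was at 7.15, 95.2, 54.9 and 283 CPM and 214 CPM in basal cell 2, against at most 0.285 CPM. Fgd5, a Cdc42 exchange factor, was at 50.8, 134, 8.46 and 69.97 CPM and 217 CPM, with no count in the other 10. Wif1, a secreted Wnt inhibitor, was at 0.583, 246, 76.1 and 250 CPM and 827 CPM, against at most 0.254 CPM, so its separation in the first K17-high cell rested on 0.583 CPM. Mpped1 was at 312, 316, 355 and 416 CPM and 491 CPM in basal cell 2, against 0 to 221 CPM. Map1b, a microtubule-associated protein, was at 354, 230, 442 and 987 CPM and 734 CPM in basal cell 2, against 17.4 to 204 CPM. Ifitm1, an interferon-induced membrane protein, was at 215, 140, 36.95 and 81.2 CPM and 272 CPM in basal cell 2, against at most 23.2 CPM. Hmga2, a chromatin protein of fetal growth, was at 175, 107, 98.2 and 134 CPM against at most 93.9 CPM. Foxp1, a forkhead factor, was at 314, 653, 306 and 516 CPM against 22.7 to 241 CPM.

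Among the 19 added lower genes, Cbs, cystathionine beta-synthase, was at 8.46, 0.285, 0.779 and 0 CPM against 52.6 CPM or more in the other 10 basal cells, with no count in basal cell 2. Gca, which shares exons with Kcnh7, was at 0 in these 5 cells and at 0.485 to 250 CPM in the other 10. Hspb1, a small heat shock protein of differentiating keratinocytes, was at 37.9, 0.855, 0.223 and 0 CPM against 49.997 CPM or more, and 3778 CPM in the intermediate cell. Sdc2, the proteoglycan syndecan 2, was at 0.292, 7.41, 56.5 and 0.946 CPM against 64.7 CPM or more. Vcan, the matrix proteoglycan versican, was at 120, 281, 69.2 and 227 CPM against 287 to 1979 CPM. H19, an imprinted non-coding RNA whose exon holds Mir675, was at 124, 42.9, 72.6 and 41.6 CPM against 201 to 523 CPM.

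**Figure D3:**
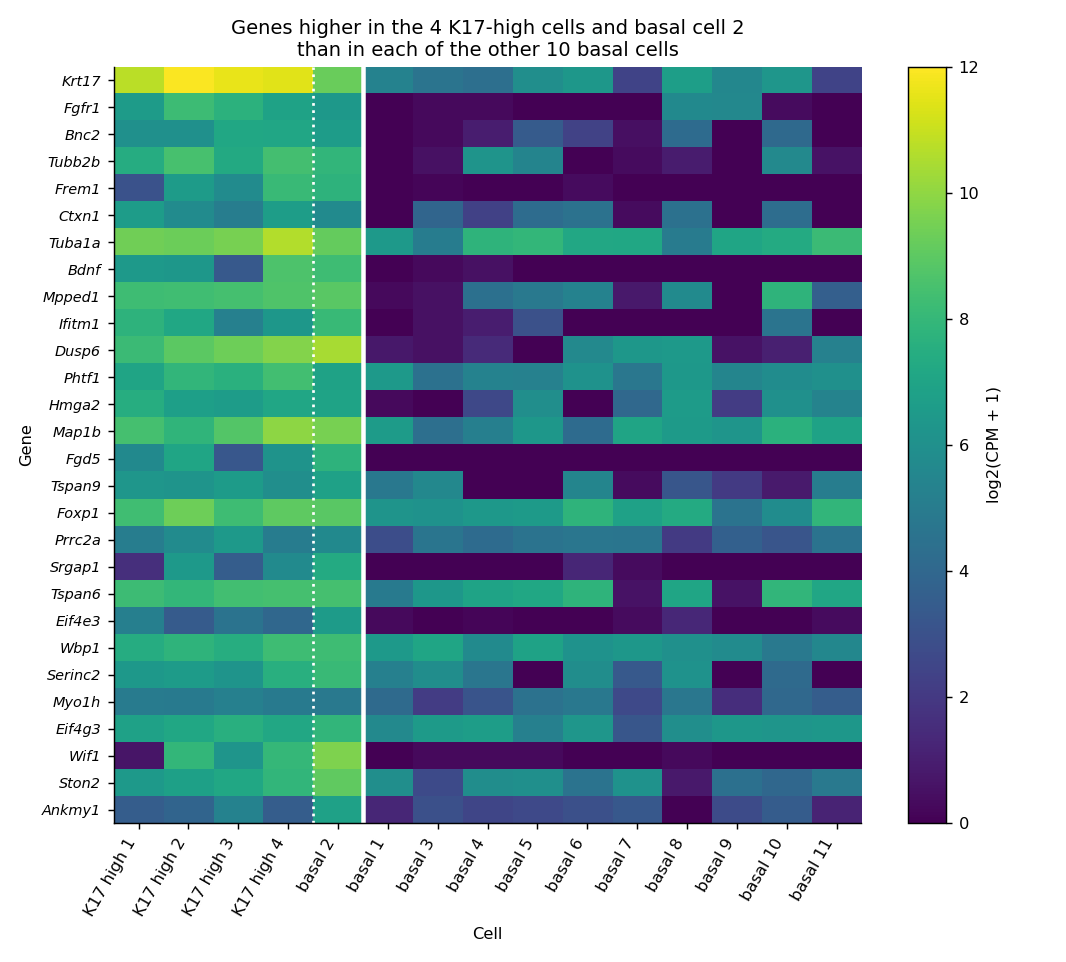
log2(CPM + 1) in each cell for the 28 symbol-named genes higher in the 4 K17-high cells and basal cell 2 than in each of the other 10 basal cells. Columns left of the solid line are the 4 K17-high cells and basal cell 2. Bdnf, Frem1, Fgd5 and Wif1 are near 0 in all 10 cells to the right, while Foxp1 and Map1b are present throughout.

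Of the lists with at least 5 described genes, G2/M genes had the highest median. Over all described genes, 5194 of 10855 had a higher summed level in the K17-high cells and 5661 a lower one. All 27 G2/M genes were described and all 27 had a higher summed level in the K17-high cells, with a median log2 ratio of 1.66 against -0.04 over all described genes, yet only Mki67 (1 of 27) was separated. Mki67, the proliferation antigen Ki-67, was at 432, 342, 347 and 579 CPM against 0.222, 108 and 336 CPM. The list's summed level was 17503, 5929, 9027 and 20988 CPM in the K17-high cells and 102 to 13965 CPM in the basal cells, with a median of 4013 CPM. The K17-high cells ranked 1, 2, 4 and 7 among the 15, and 3 basal cells fell among them. The G2/M content of the K17-high cells moved with the label, and its part in the other differences was not tested. Leaving out basal cell 2, which ranked last, gave a median of 1.53.

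S-phase genes (22 of 22 described, none separated) had a median of -0.43, and their summed level was 10340 CPM in the second K17-high cell and 2794, 1855 and 1376 CPM in the others. The basal range was 1663 to 9220 CPM. The 4 cells thus differed in both sums. Of genes reaching 50 CPM in 1 of the 4, the 10 with the largest spread were Ube2c, Kpna2, Cdc25b, Slbp, Pthlh, Socs2, Fam83d, Kctd20, Prc1 and Ckap2l. Ube2c, a ubiquitin-conjugating enzyme of mitotic exit, was at 1530, 107, 0 and 1841 CPM. Slbp, which binds histone mRNA in S phase, was at 176, 921, 2.67 and 0.630 CPM. Pthlh, a secreted hormone-like peptide, was at 27.1, 555, 0 and 312 CPM.

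**Figure D4:**
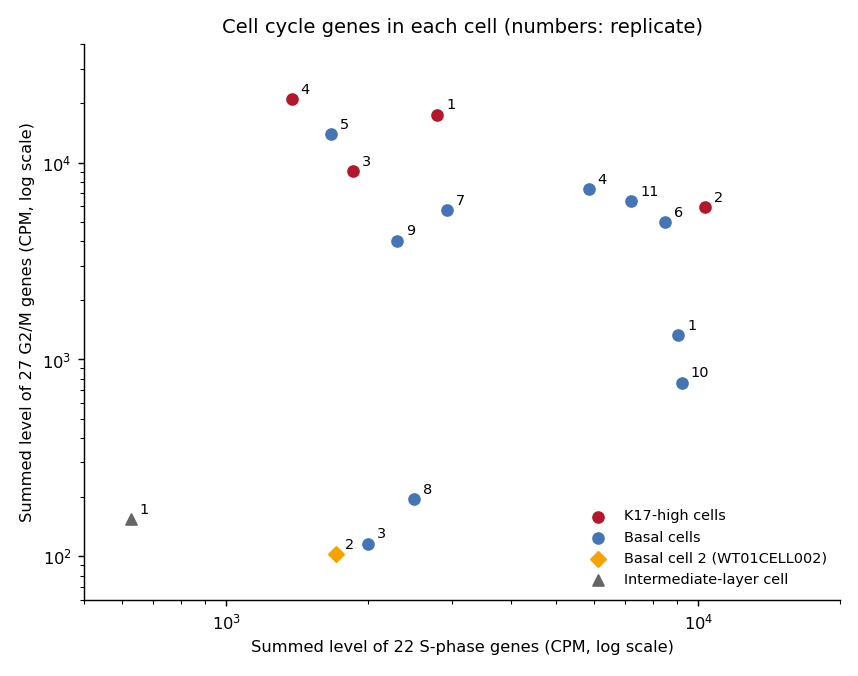
Summed CPM of 27 G2/M genes against that of 22 S-phase genes in each cell, both on log axes, with the replicate number beside each point. K17-high cells 1, 3 and 4 lie at low S-phase and high G2/M levels, and K17-high cell 2 lies at 10340 and 5929 CPM.

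Hedgehog pathway genes (13 of 15 described) were not separated, and 10 of the 13 had a summed level above basal, against 5194 of all 10855 genes, with a median log2 ratio of 0.95. Ptch1, the receptor and a target of the pathway, was at 13.1, 341, 60.1 and 214 CPM against 0, 0.259 and 24.97 CPM, so only the first K17-high cell met the basal range. Gli1, a transcription factor and target, was at 8.31, 58.6, 90.4 and 11.03 CPM against 0, 0 and 24.2 CPM. The receptor component Smo was at 137, 59.2, 234 and 288 CPM against 5.40, 55.6 and 214 CPM. Shh itself was below the filter, with 31.7 CPM in the fourth K17-high cell and 0.292, 0 and 0 CPM in the others.

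FGF and EGF pathway genes (12 of 21 described) had a median of 0.95, with Fgfr1 the 1 separated member and Dusp6 added without basal cell 2. Fgfr3 was at 208, 129, 156 and 12.3 CPM against 0, 0.254 and 58.4 CPM, while Fgfr2 overlapped in full (528, 368, 1036 and 290 CPM against 66.9 to 953 CPM). Etv5, an ERK target, was at 0.292, 232, 180 and 187 CPM, and basal cell 2 had 426 CPM.

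Follicle progenitor genes (14 of 22 described, Sox9 separated) had a median of 0.69, and 12 of the 14 had a summed level above basal, against 5194 of all 10855. Tcf7l1, a repressor of the Wnt response, was at 157, 32.9, 133 and 216 CPM against 0.534, 59.7 and 82.9 CPM. Tbx1, below the filter, was at 103, 0, 89.0 and 0.315 CPM with no count in any basal cell. Lhx2 had no count in the K17-high cells and 32.3 CPM in basal cell 2. Of the 6 described Sox genes 4 had a higher summed level (5194 of all 10855), among them Sox4 (368, 259, 674 and 571 CPM against 34.2, 136 and 958 CPM) and Sox11 (52.2, 232, 27.7 and 130 CPM against 0, 2.03 and 96.9 CPM).

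Hair placode genes (10 of 14 described, none separated) had a median of -0.51, or -0.16 without basal cell 2 and 0.29 with the median of the cells' CPM in place of the summed level. Edar, the ectodysplasin receptor, was at 0.875, 4.56, 99.7 and 131 CPM in the K17-high cells and 676 CPM in basal cell 2, with a basal median of 0.257 CPM. Bmp2 was at 1.75, 0, 0 and 16.1 CPM and 899 CPM in basal cell 2. Sostdc1, a secreted BMP and Wnt inhibitor, was at 684, 974, 872 and 384 CPM against 0.763, 225 and 1052 CPM, with the lowest value in basal cell 2.

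Periderm genes (6 of 14 described, none separated) had a median of -0.53, or 0.34 with the median of the cells' CPM. Krt7 was at 25.1, 0.285, 0.223 and 0.315 CPM against 0, 36.9 and 265 CPM, and Krt19 had no K17-high count. Gabrp, a periderm marker, had no K17-high count and reached 262 CPM in 1 basal cell. Krt6a stayed at or below 0.668 CPM in the K17-high cells. Of the 6 described genes, 3 had a summed level above basal and 3 below, against 5194 and 5661 of all 10855. The 3 above basal are not among the genes named here. The list's summed level was 352 to 610 CPM in the K17-high cells and 178 to 936 CPM in the basal cells.

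Hemidesmosome genes (9 of 9 described, none separated) had a median of -0.68. Of the 9, 3 had a summed level above basal and 6 below, against 5194 and 5661 of all 10855 genes. The list's summed level was 1349 to 2169 CPM in the K17-high cells and 674 to 2702 CPM in the basal cells. Itgb4 was at 229, 18.96, 77.7 and 36.4 CPM against 22.4, 159 and 270 CPM, and Dst was at 182, 39.1, 133 and 40.03 CPM against 27.5, 279 and 464 CPM. Basement membrane genes (17 of 20 described) had a median of 0.38, with Frem1 added without basal cell 2 and Fbln1 at 446, 989, 855 and 1292 CPM against 151, 438 and 866 CPM.

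Wnt genes (34 of 45 described) had a median of -0.12, with Fzd6 the 1 separated member and Wif1 added without basal cell 2. Notch genes had a median of -0.19, BMP and TGF-beta genes -0.14, epidermal transcription factors 0.49, desmosome and cadherin genes -0.18, tight junction genes -0.26, focal adhesion genes -0.17, actin and myosin genes -0.02, suprabasal genes 0.27, G1 regulators 0.45, glycolysis genes 0.05, sterol genes 0.03, Hox genes 0.56 and Eda and NF-kB genes -0.87, the last of which was 0.19 with the median of the cells' CPM. None of these held a separated gene apart from Fzd6. Trp63, the p63 gene itself, was at 733, 337, 1176 and 561 CPM against 304, 464 and 637 CPM. Immediate-early and heat shock genes, which can rise during cell isolation, had a median of -0.68, and their summed level was 3173 to 8426 CPM against 2798 to 16162 CPM. Ribosomal protein genes (85 of 89 described) had a median of -0.27, with 78 of the 85 below basal, against 5661 of all 10855, and 1 was added to the lower genes without basal cell 2.

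**Figure D5:**
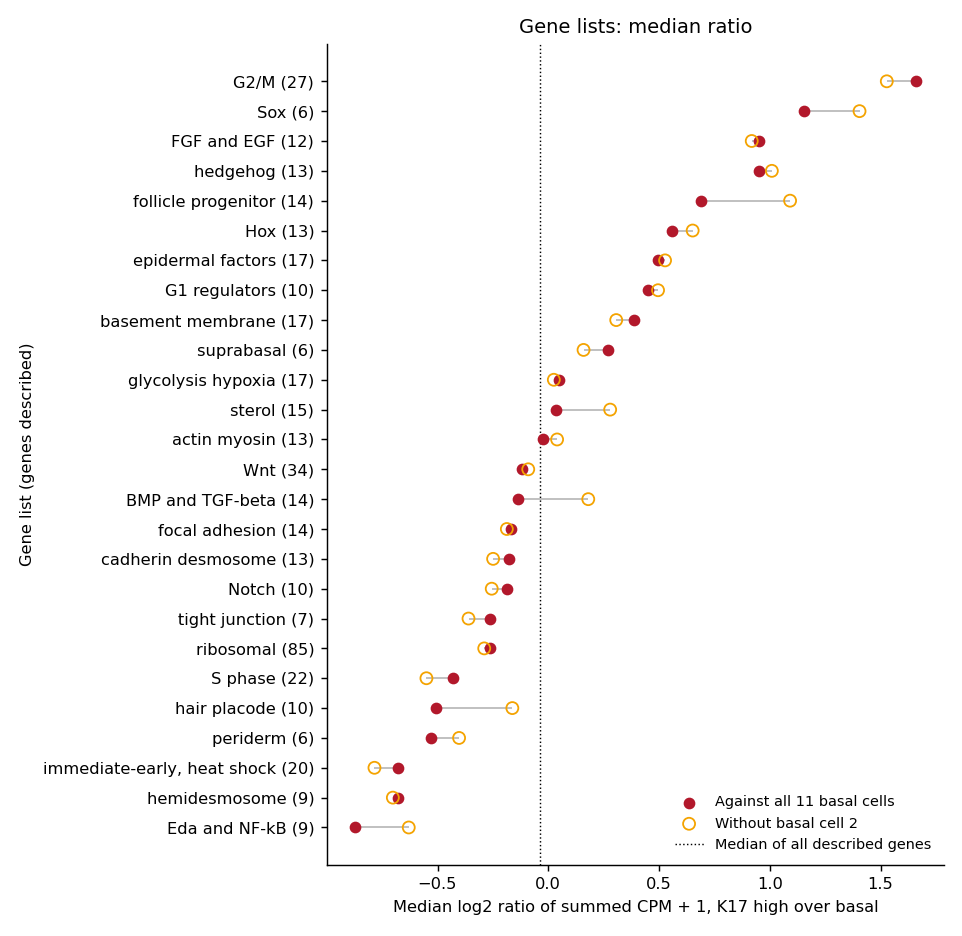
Median log2 ratio of the summed CPM + 1 in K17-high over basal cells for each list with at least 5 described genes. Filled red points use all 11 basal cells, open orange circles leave out basal cell 2, and the dotted line is the median of all described genes. G2/M genes lie farthest to the right, at 1.66, and Eda and NF-kB genes farthest to the left, at -0.87 (0.19 with the median of the cells' CPM).

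None of the 5 Merkel, 8 melanocyte or 10 other-lineage genes was described, and the largest such value in a K17-high cell was Atoh1, a Merkel cell factor, at 35.6 CPM in the fourth cell. Of 12 mesenchyme markers 4 were described, 3 of them with a summed level above basal, against 5194 of all 10855 genes. The median log2 ratio of these 4 was 1.94. Pdgfra (against which the cells were screened), Col1a1, Col3a1, Lum, Pdgfrb, Twist1 and Twist2 were at 0 in all 4 K17-high cells. The summed level of the list was 775 to 1453 CPM against 580 to 2582 CPM, and most of it was Dcn and Postn, which were present in every cell. Vim, an intermediate filament protein of mesenchyme, was at 90.4, 33.1, 74.1 and 284 CPM against 0, 0.485 and 82.8 CPM. Col1a2 was at 30.0, 36.2, 0 and 58.6 CPM against 0, 0 and 19.9 CPM. The part of Vim and Col1a2 in other differences was not tested.

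Across the whole transcriptome the K17-high cells were about as alike as the basal cells other than basal cell 2. Spearman correlations of log2(CPM + 1) over 10847 genes were 0.528 to 0.590 among the 6 pairs of K17-high cells (median 0.566) and 0.451 to 0.641 for the 40 pairs with a basal cell other than basal cell 2 (median 0.527). Pairs among those 10 basal cells had a median of 0.563. The first K17-high cell correlated with the 10 basal cells at a median of 0.571, about as with the other K17-high cells (0.576). Basal cell 2 correlated with the K17-high cells at 0.447 to 0.486. The values are a description, since all pairs share cells and depend on the number of genes detected per cell.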

How the data were processed

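Each cell was amplified with SMART-Seq HT, tagged with Nextera XT and sequenced without unique molecular identifiers by the study. Reads were trimmed with Trimmomatic, aligned with HISAT2 to mm10 and counted over genes of Ensembl release 97 with featureCounts. The deposited values were handled like expected counts, since 30.1% of the values above 0 carry a fraction, and how reads were divided is not given in the sources used here. The authors deposited 237 columns, of which 16 are tied to a cell name by the study, and 221 were not used. Counts were rounded and divided by the column total. Symbols were matched for 55154 of 55335 genes, and positions came from GENCODE M21 (GRCm38, the build of mm10). A gene was described at 5 CPM or more in at least 4 of 15 cells, ratios used the summed CPM of each group with 1 CPM added, and the separation step was tested on simulated counts. Genes to name were those separated with a 2-fold gap and 10 CPM in every cell of the higher group, members of the 33 gene lists, the label genes with Sox9, the 5-against-10 genes and the 10 most variable. The members and lists were chosen with earlier results of these data known. Python, pandas and scipy were used, with edgeR for TMM factors. Intervals and limits of 3 counts cover counting error only. Alternatives were another scaling, filter, pseudocount or thinning, and leaving out each cell. Some genes are not reported here.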

Additional observations from a re-analysis of the deposited data

Results flagged for a closer look

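Among the 43 separated genes, 5 had 1 of the 4 K17-high cells far from the other 3, by Dixon's ratio of the gap to the range, a limit that chance passes in about 1 in 20 groups. Plekhh1 had 85.9 CPM in K17-high cell 4 against 9.02 to 13.1 CPM in the others (ratio 0.947). Susd4 had 928 CPM in the same cell against 251 to 332 CPM (0.880), and Tuba1a had 1557 CPM there against 638 to 749 CPM (0.880). Ahr and Wdr45 (both ratio 1) were at 0 in 3 K17-high cells and had 0.583 CPM in cell 1 and 0.143 CPM in cell 2, values of a few reads or fewer. Cells of 1 embryo are not independent samples, so the limit serves only to point out single cells.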

How the results depend on the processing

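The cells came from 1 embryo, the labels from their own keratins, and the depth was 6345186 to 9001846 counts, so genes under 5 CPM were not described. No paired analysis was possible because 1 embryo gave all columns. Leaving out a cell can only add separated genes. The higher genes then ranged from 34 to 91 (33 with all cells), the lower ones from 11 to 38 (10), those with a 2-fold gap from 6 to 14 (6) and from 2 to 8 (2). Without K17-high cell 1, 2, 3 or 4 the higher genes were 78, 91, 68 and 61 and the lower ones 38, 28, 36 and 24. Without basal cell 2 they were 59 and 29, and without basal cell 3, 8 or 9 the lower ones were 17, 18 and 16. The higher genes with a gap were 14 without basal cell 2, 11 without K17-high cell 2 and 10 without K17-high cell 4. The lower genes with a gap were 8, 4 and 7 without K17-high cells 1, 2 and 3, 5 without basal cell 2 and 4 without basal cell 3. Median-of-ratios size factors left 1 lower gene with a gap and a pseudocount of 0.1 CPM gave 4; the cause was not tested for the first, and the second follows from the smaller added value. An alternative chosen after seeing the data, which keeps only genes free of shared exons and fractional counts, left 14 higher and 4 lower genes, 3 of the higher ones with a gap. TMM totals, totals without the 10 most counted genes, fractional counts, other filters and thinning to the smallest total kept each of the 4 counts within 1.5 times. No separated gene changed the sign of its ratio with median-of-ratios factors. With the mean or median of the cells' CPM, a pseudocount of 0.1 CPM or a cell left out, the definition of separation fixes the sign. With a cell left out, 390 of the ratios of separated genes stayed within counting error while 255 moved further. With the median of the cells' CPM in place of the summed level, the medians of the periderm (0.34), hair placode (0.29) and Eda and NF-kB lists (0.19) turned positive; the cause was not tested.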
